A study of Mus musculus with 8 samples.

Results

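The mRNAs of the 9 mouse cohesin subunits Rec8, Rad21, Rad21l, Smc1a, Smc1b, Smc3, Stag1, Stag2 and Stag3 were examined in RNA-seq data of oocytes at the GV stage (germinal vesicle, before meiosis resumes), and were taken from the 46078 genes of the deposited count table by gene symbol. The libraries fall into 2 groups of 4, Zp3-Cre as the control and CNOT7&8 KO, and each was made from 100 oocytes. CNOT7&8 KO oocytes came from mice in which Cnot8 fl/fl was combined with Cnot7 fl/fl (floxed alleles) and the Zp3-Cre transgene, so both groups carry Cre, which the Zp3 promoter drives in growing oocytes. The females were on a C57BL/6J background, 4 weeks old and primed with PMSG, a gonadotropin. The sources do not tell how many females gave the oocytes of a library, so p-values measure the spread between libraries, which may be technical.

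Cohesin is a ring that holds sister chromatids together and shapes chromatin loops. A pair of SMC proteins, SMC3 with SMC1α or the meiotic SMC1β, is closed by a kleisin, RAD21 in mitosis and REC8 or RAD21L in meiosis, and a STAG protein binds the kleisin, STAG1 or STAG2 in mitosis and STAG3 in meiosis. In the oocyte, REC8 cohesin loaded before birth holds the chromosomes together until separase cleaves REC8 at the meiotic divisions. CNOT7 and CNOT8 are deadenylases of the CCR4–NOT complex, which shortens poly(A) tails, and the cytoplasmic polyadenylation element (CPE) is a 3′UTR sequence through which tails of maternal mRNAs are controlled.

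The 3′UTRs of Smc3, which all cohesins share, and of the mitotic subunits held CPE sequences, and those of the meiotic Smc1b and Stag3 were shorter and held none. In the longest coding-transcript 3′UTR of the GENCODE vM21 annotation (GRCm38), the CPE sequence TTTTAT, searched on the transcript strand, occurred 7 times in Stag1 (1987 bases), 6 times in Stag2 (1899 bases), 5 times in Smc3 (1055 bases), 1 time in Rad21 (1816 bases) and 1 time in Smc1a (885 bases). Smc1b (273 bases) and Stag3 (349 bases) had no copy, and no 3′UTR of at least 50 bases was annotated for Rec8 or Rad21l. Of the 15132 tested genes with such a 3′UTR, 56.2% held TTTTAT, and the median 3′UTR was 1118 bases long. The AU-rich sequence ATTTA, which can share letters with TTTTAT, was present in the same 5 subunits and in 69.8% of the genes, and the Pumilio-type sequence TGTAAATA, present in 12.0%, was in none of the 7. The copy of TTTTAT nearest to the annotated end of each 3′UTR is given with 10 bases on either side. Letters run 5′ to 3′ on the transcript strand, with the element in capitals. TTTTAT is shown as the CPE sequence and not because it alone differs, as ATTTA was present in and absent from the same subunits. The polyadenylation signal AATAAA of Stag3, also in capitals, is shown for the end of a 3′UTR without a CPE. That signal does not set the forms apart, as it occurred in Rad21, Smc1a, Stag1 and Stag2 and in 82.1% of the genes, but not in Smc3 or Smc1b.
Stag1 (chr9:100957990-100958015, plus strand): taaaatacgaTTTTATtcatcctttt
Stag2 (chrX:42276813-42276838, plus strand): catacatttgTTTTATtaattaatgg
Smc3 (chr19:53645598-53645623, plus strand): agaaaagcagTTTTATgtgggattca
Rad21 (chr15:51962960-51962985, minus strand): gtgttggcacTTTTATgggggggaaa
Smc1a (chrX:152062115-152062140, plus strand): aatggacaccTTTTATttgtctggct
Stag3 (chr5:138312359-138312384, plus strand): ccaaactttcAATAAAcatgttcagc
These copies lay 220 bases (Smc3) to 730 bases (Rad21) before the annotated end, and the signal of Stag3 lay 19 bases before it. The match of letters is a description and does not show that a site is used.

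Total counts were 14943671 to 44092144 in control and 8639444 to 26784110 in KO libraries, and 3 counts, taken as the detection floor, made 0.0802 to 0.326 normalized CPM (counts per megaread of library size, scaled by TMM). Floors cover counting error only. Of the targeted genes, Cnot8 was at 21.0% and Cnot7 at 77.1% of the control level in KO libraries. The Cnot7 call (log2 fold change -0.38, edgeR quasi-likelihood adjusted p = 0.0105) was lost with library size as the only scaling (-0.092) and with TMM on genes of at least 10 CPM (-0.12), so its counts over the whole gene do not by themselves check the KO label. Which part of Cnot7 is floxed is not given in the sources used here. The study itself reported, by immunoblotting, that CNOT7 and CNOT8 proteins were absent from KO oocytes. All 10 oocyte markers (Gdf9, Bmp15, Zp1 to Zp3 and others) were detected, and they summed to 17460 to 20040 CPM in control and to 14400 to 16800 CPM in KO libraries, with 5 lower and 1 higher in KO. The 10 granulosa and cumulus markers summed to 80.9 to 105 CPM in control and 85.02 to 145 CPM in KO libraries. Of the 9 tested, 4 were higher and 1 lower in KO, where 31.2% of all genes tested were higher and 24.1% lower. Of the higher ones, Inha averaged 6.86 CPM in control and measured 38.4, 34.1, 26.5 and 4.77 CPM in KO replicates 1 to 4. Fshr went from a mean of 1.29 to 3.87 CPM, and the lower one, Cyp19a1, from 58.45 to 31.35 CPM. Foxl2 had at most 1 count in each library. Of the 5 theca and stroma markers, 1 was lower, Col3a1, at 0.37 against 0.062 CPM and 0 to 11 counts, close to the floor. These markers summed to 1.79 to 4.23 CPM. The 4 of blood and endothelium summed to 74.4 to 108 CPM, nearly all of it Pecam1 (mean 96.2 CPM in control and 82.2 CPM in KO). Of the 2 tested there, Ptprc was higher, at 0.12 against 0.62 CPM and 1 to 18 counts, close to the floor. Hbb-bs was at 0. The mitotic subunits are made in dividing somatic cells as well, and the part of such cells in the results was not tested. Control replicate 1 and KO replicate 4 stood apart from the other libraries, deviated together across genes (r = 0.372 over the genes tested) and were the deepest of their groups.

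Rec8 mRNA was close to absent from the counts. Its reads were 2 in control replicate 1, 2 in KO replicate 2 and 0 in each of the other 6 libraries. Both groups were thus under the floor of 3 counts per library, which in the deepest library, control replicate 1, corresponded to 0.0802 CPM. Rec8 (ENSMUSG00000002324, chromosome 14 of GRCm38 from 55618037 to 55625395, plus strand) overlaps no other gene of GENCODE vM21. That may not be the annotation used for counting. Rec8 did not pass the filter on low counts and has no fold change. The other 8 subunits passed that filter of at least 0.2 CPM in 2 or more libraries, and the lowest value among them was 59 counts, for Rad21l in KO replicate 1. REC8 protein was not measured, and the counts were not checked against the reads here.

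The levels of the 8 detected subunits spanned a wide range when set per length, as normalized CPM per kilobase of the longest annotated transcript. In control oocytes, Smc3, the subunit common to all cohesins, was highest at 64.1 ± 14.2 CPM per kilobase (SD, n = 4) and lay above 93.2% of the tested genes. It was followed by Smc1a at 34.2 ± 6.26, Stag2 at 22.1 ± 2.58, Rad21 at 21.9 ± 5.66, Stag1 at 8.92 ± 1.86, Smc1b at 8.16 ± 1.79, Rad21l at 3.88 ± 1.55 and Stag3 at 1.99 ± 0.463 CPM per kilobase. In this order, the ranges over the 4 control libraries overlapped for Stag2 and Rad21 and for Stag1 and Smc1b, and not for the other neighbors. The meiotic forms thus held the lower levels within each role, and Stag3 lay above 48.9% of the tested genes only.

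In CNOT7&8 KO oocytes the order of the levels differed. Stag2, at 35.4 ± 2.92 CPM per kilobase (SD, n = 4), lay second after Smc3 at 46.6 ± 3.98, and its 4 libraries (32.6 to 39.5) were above those of Smc1a (24.8 to 31.8). The order went on with Smc1a at 29.2 ± 3.07, Rad21 at 21.3 ± 4.51, Stag1 at 7.06 ± 0.772, Smc1b at 4.59 ± 0.846, Rad21l at 4.22 ± 0.460 and Stag3 at 3.23 ± 0.356 CPM per kilobase. The ranges of Smc1a and Rad21 and those of Smc1b and Rad21l overlapped. With the union of exons as the length, Stag2 was at 26.4 and Smc1a at 23.7 CPM per kilobase in KO, and their libraries overlapped. By this length Stag1 was at 4.68 CPM per kilobase in control, with every library below those of Smc1b, and at 3.71 in KO, where the means of Smc1b (4.59) and Rad21l (4.22) lay above it.

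**Figure D1:**
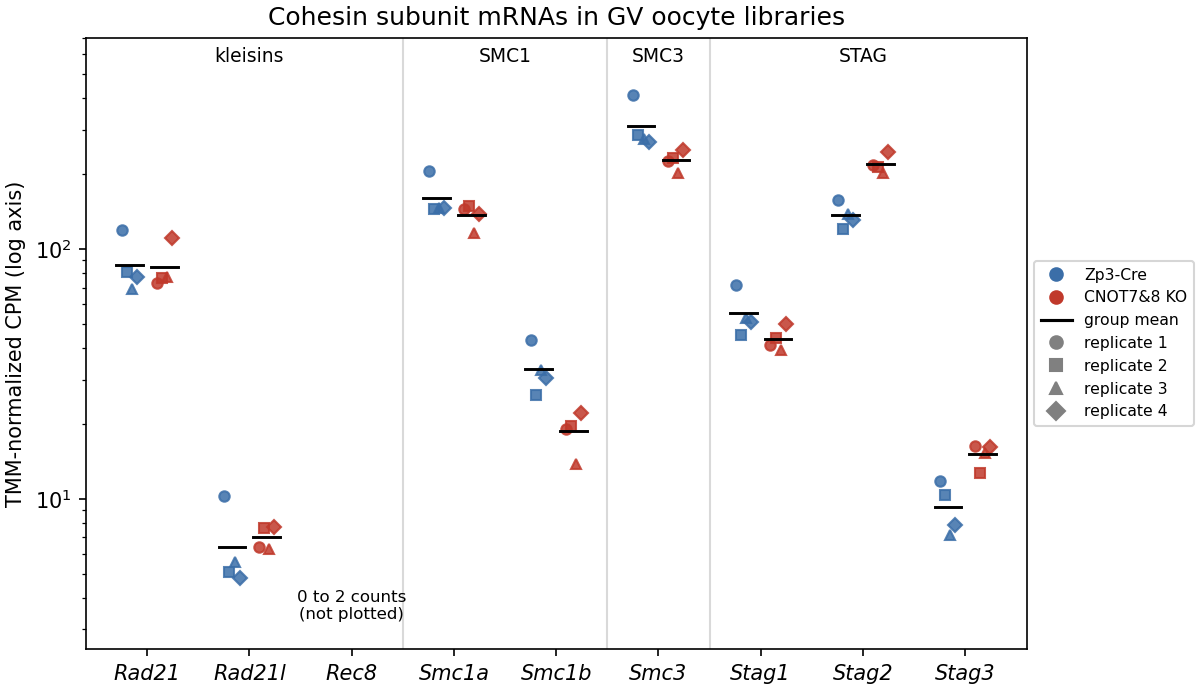
Normalized CPM of the cohesin subunits by library (log axis), with 4 Zp3-Cre libraries in blue, 4 CNOT7&8 KO libraries in red, symbols for the replicate number and lines for the group means. The groups are separate for Smc1b, Smc3, Stag2 and Stag3, control replicate 1 is the highest control library in each gene, and Rec8, with 0 to 2 counts, is not plotted.

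Of the 8 subunits tested, Stag2 and Stag3 rose and Smc1b and Smc3 fell in KO oocytes at a false discovery rate of 0.05, whereas Rad21, Rad21l, Smc1a and Stag1 did not pass it (edgeR's quasi-likelihood test, Benjamini-Hochberg adjustment over all genes). Of all 19241 genes tested, 31.2% were higher and 24.1% lower by the same rule, 55.2% in all, so that 4 of 8 subunits is a share near that of all genes. None of the 8 changed by 2-fold or more, where 23.8% of all genes were at least 2-fold higher and 6.56% at least 2-fold lower. By edgeR's exact test and by DESeq2 this count was also 0, and 5 of the 8 had an unadjusted p under 0.05. The median log2 fold change was -0.13 over the 8 subunits and 0.12 over all genes. The median of all genes depends on level. It was 0.47 for genes that average 1 to 10 CPM, as Rad21l does. For genes at 10 to 100 CPM it was -0.17, and at 100 CPM or more -0.37, the levels of the other tested subunits. The 2-fold shares were not computed by level. Libraries of equal oocyte numbers were scaled to one another, so a change in the total RNA of an oocyte, or in the number of oocytes, cannot be told apart from the scaling.

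The subunits that rose were the STAG paralogs Stag2 and Stag3, but not Stag1. Stag2, the X-linked mitotic paralog, measured 158, 120.1, 138 and 130.0 CPM in control replicates 1 to 4 against 217, 212, 201 and 244 CPM in those of KO. Every KO library was above every control library, with the KO mean at 160.4% of the control mean (log2 fold change 0.68 ± 0.11 SE, edgeR quasi-likelihood adjusted p = 0.000326). Among the 2414 genes that average 100 CPM or more, as Stag2 does, 8.37% were higher and 55.2% lower in KO at the same false discovery rate.
Stag3, the meiotic paralog, measured 11.8, 10.4, 7.15 and 7.87 CPM in control replicates 1 to 4 against 16.3, 12.7, 15.2 and 16.1 CPM in those of KO. The groups did not overlap, as for 48.4% of all genes tested, and the log2 fold change was 0.69 ± 0.19 SE (same test, adjusted p = 0.00762). Per length it was the least abundant of the detected subunits, and it had 105 to 473 counts per library.
Stag1, the autosomal mitotic paralog, went the other way without passing the test. It measured 71.7, 45.2, 53.0 and 50.8 CPM in control replicates 1 to 4 against 41.3, 44.0, 39.2 and 50.2 CPM in those of KO, with overlapping groups (log2 fold change -0.34 ± 0.15 SE, same test, adjusted p = 0.0788). It passed a false discovery rate of 0.05 without KO replicate 4 (-0.38) or without control replicate 2 (-0.42).

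The SMC subunits were level or lower in KO oocytes. Smc1b, the meiotic SMC1 paralog, measured 43.0, 26.0, 32.8 and 30.3 CPM in control replicates 1 to 4 against 19.0, 19.6, 13.8 and 21.9 CPM in those of KO. Every KO library was below every control library, and the KO mean was 56.3% of the control mean (log2 fold change -0.83 ± 0.18 SE, edgeR quasi-likelihood adjusted p = 0.00245). With library size as the only scaling Smc1b was at -0.54. Of the 6314 genes that average 10 to 100 CPM, as Smc1b and Stag3 do, 36.8% were lower and 25.7% higher in KO, so calls of both kinds are common at their level.
Smc3 measured 414, 286, 275 and 269 CPM in control replicates 1 to 4 against 224, 231, 202 and 248 CPM in those of KO. The groups did not overlap, and the log2 fold change was -0.46 ± 0.14 SE (same test, adjusted p = 0.0165). Smc3 averages over 100 CPM, where 55.2% of genes were lower. This call ended with library size as the only scaling (-0.17, adjusted p = 0.252) and with TMM on genes of at least 10 CPM (-0.20, adjusted p = 0.133). Without control replicate 1, which lay apart from the other 3 control libraries, the fold change of Smc3 was -0.29 and still passed (adjusted p = 0.0164, same test).
Smc1a, the X-linked mitotic SMC1, measured 204, 145, 146 and 146 CPM in control replicates 1 to 4 against 144, 149, 116 and 138 CPM in those of KO. The groups overlapped, and the log2 fold change of -0.23 ± 0.14 SE (same test, adjusted p = 0.172) was 0.059 with library size as the only scaling. Of the X-linked subunits, Stag2 was thus higher and Smc1a did not pass the test.

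Neither of the detected kleisins passed the test. Rad21, the kleisin of mitotic cohesin, measured 119, 81.0, 68.9 and 77.2 CPM in control replicates 1 to 4 against 72.9, 76.6, 77.1 and 111 CPM in those of KO. The highest values of both groups were those of the libraries that stood apart, and the group means of 86.6 ± 22.4 and 84.4 ± 17.9 CPM (SD, n = 4 each) differed by less than the spread (log2 fold change -0.038 ± 0.18 SE, edgeR quasi-likelihood adjusted p = 0.874). With library size as the only scaling, the log2 fold change of Rad21 was 0.26 (adjusted p = 0.219, same test).
Rad21l, the kleisin RAD21L of meiotic prophase, measured 10.3, 5.08, 5.58 and 4.81 CPM in control replicates 1 to 4 against 6.41, 7.64, 6.29 and 7.70 CPM in those of KO. Control replicate 1 was above every KO library and the other 3 control libraries were below every one of them. Its log2 fold change of 0.11 ± 0.25 SE (same test, adjusted p = 0.725) was 0.45 without control replicate 1 (adjusted p = 0.0539).

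**Figure D2:**
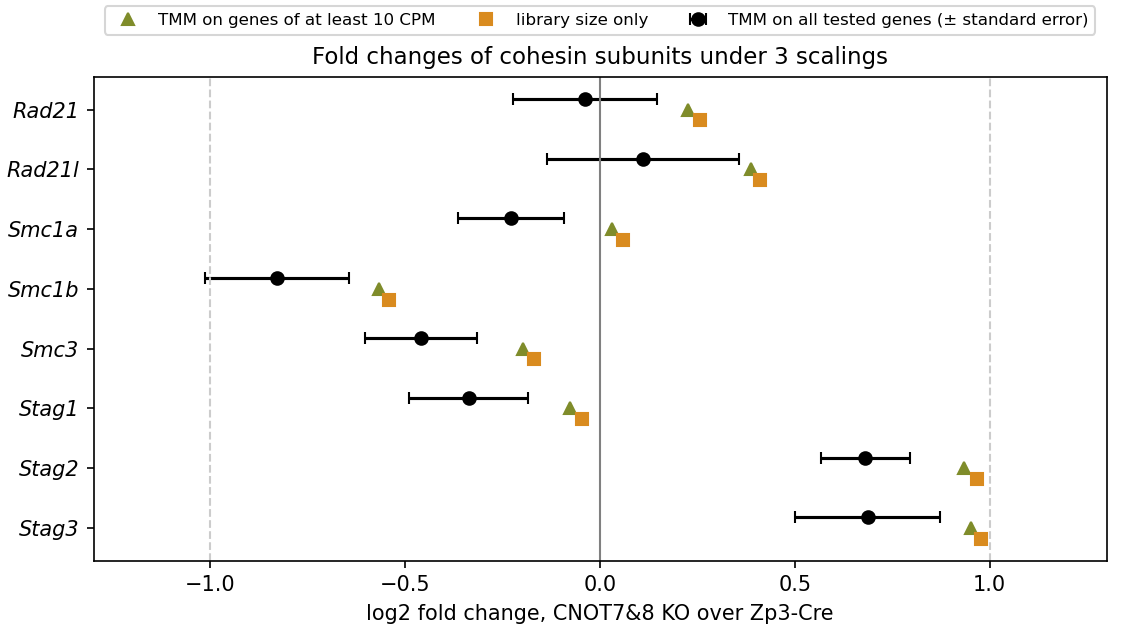
Log2 fold change of each tested subunit (CNOT7&8 KO over Zp3-Cre, horizontal axis) under 3 scalings, with standard errors for TMM on all tested genes and dashed lines at a 2-fold change. Stag2 and Stag3 stay above 0 and Smc1b below it under each of the 3, Smc3 and Stag1 come closer to 0, and Rad21 and Smc1a change sign.

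Ratios of subunits that take the same place in the ring were compared within each library, since the scaling of a library cancels in them. The ratio of Stag2 to Stag1 counts was 2.20, 2.66, 2.6 and 2.56 in control replicates 1 to 4 and 5.26, 4.82, 5.13 and 4.85 in KO replicates 1 to 4. It was 2.01-fold higher in KO, a log2 difference of 1.01, without overlap (two-sided exact permutation p = 0.0286, the smallest that 4 libraries against 4 allow, and 0.0476 adjusted over the 5 ratios computed). The SD of the log2 ratio was 0.12 in control and 0.062 in KO libraries. Groups did not overlap for 48.4% of all single genes tested. How often ratios of other gene pairs separate the groups was not computed.
The ratio of Stag3 to Stag1 was 0.165, 0.23, 0.135 and 0.156 in control and 0.396, 0.289, 0.389 and 0.321 in KO replicates 1 to 4. It was 2.06-fold higher in KO without overlap (two-sided exact permutation p = 0.0286, adjusted p = 0.0476). Without KO replicate 1 or KO replicate 3 its two-sided exact p was 0.0571. The ratio of Stag3 to Stag2 spanned 0.0522 to 0.0865 in control libraries and 0.0600 to 0.0758 in those of KO, which overlap (log2 difference 0.034, two-sided exact permutation p = 0.857).
The ratio of Smc1b to Smc1a was 0.211, 0.179, 0.225 and 0.208 in control and 0.132, 0.132, 0.119 and 0.159 in KO replicates 1 to 4. It fell by 0.60 on the log2 scale without overlap (two-sided exact permutation p = 0.0286, adjusted p = 0.0476). The ratio of Rad21l to Rad21 spanned 0.0627 to 0.0861 in control libraries and 0.0695 to 0.1 in those of KO, which overlap as well (log2 difference 0.22, two-sided exact permutation p = 0.2). The meiotic forms therefore did not move together against their mitotic paralogs, with Smc1b lower against Smc1a, Stag3 higher against Stag1 only, and Rad21l not passing the test against Rad21. A ratio of Rec8 to Rad21 was not computed, as Rec8 was under the floor.

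Per base of the longest transcript, the mitotic forms made up most of the mRNA for each place in both genotypes. Stag2 took 67.1% ± 1.93 (SD, n = 4) of the STAG total in control libraries and 77.5% ± 0.230 in those of KO, Stag1 26.9% ± 1.70 and 15.4% ± 0.673, and Stag3 6.05% ± 1.27 and 7.08% ± 0.766. Smc1b took 19.2% ± 1.46 of the SMC1 total in control and 13.5% ± 1.46 in KO libraries. Among kleisins, Rad21 took 85.2% ± 2.15 in control and 83.2% ± 2.16 in KO libraries, and nearly all of the rest was Rad21l. With the union of exons as the length, the share of Stag2 was 72.4% in control and 80.7% in KO libraries. Library scaling does not enter these shares, and for Stag1 the highest KO share lay below the lowest control share.

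**Figure D3:**
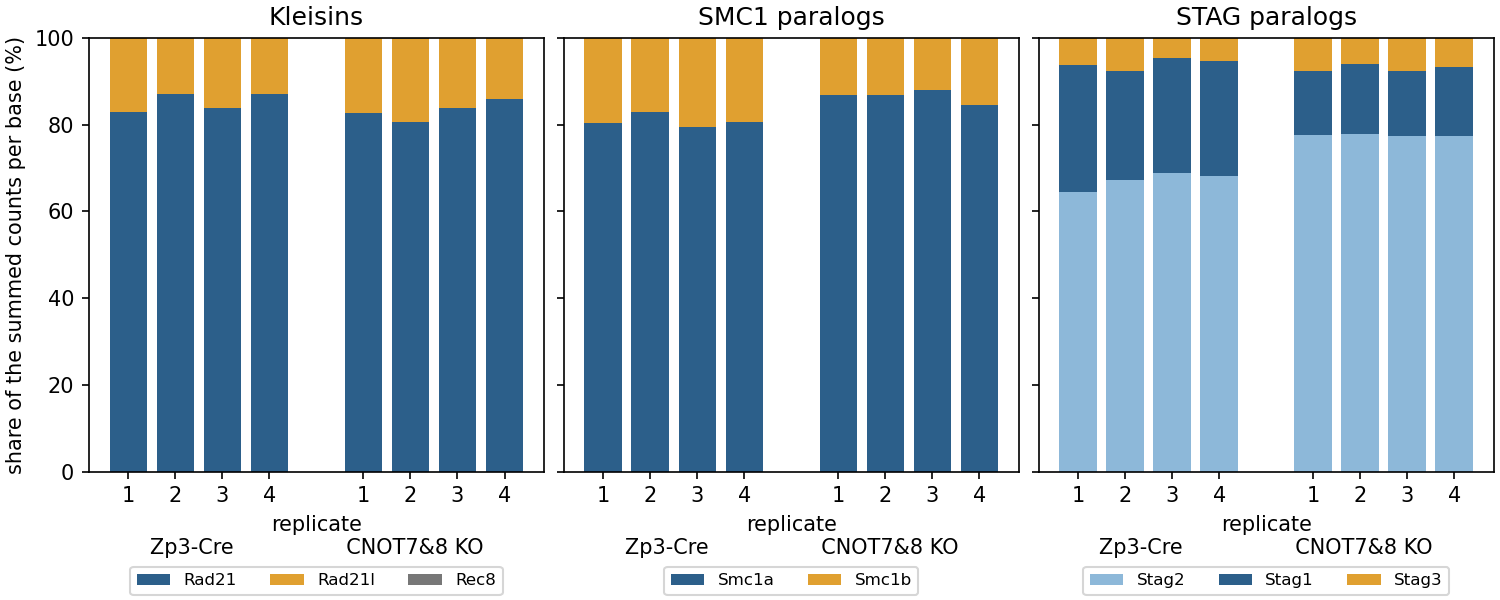
Share of each paralog in the summed counts per base for its place in the ring (vertical axis, percent), for 4 Zp3-Cre and 4 CNOT7&8 KO libraries by replicate number (horizontal axis). Stag1 (dark blue, right panel) takes 25.2% to 29.2% in control and 14.7% to 16.1% in KO libraries, and Smc1b (orange, middle panel) 17.2% to 20.7% and 12.1% to 15.6%.

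The positions of the subunits in GRCm38 are spread over 7 chromosomes, and 4 of the 9 overlap other annotated genes. Smc1a (from 152016428 to 152062694) and Stag2 (from 42149317 to 42277185) lie on chromosome X, and Rad21 (from 51962240 to 51991747, minus strand) and Smc1b (from 85064689 to 85131964, minus strand) on chromosome 15. Smc3 lies on chromosome 19 (from 53600398 to 53645833), Stag1 on chromosome 9 (from 100597798 to 100959375), Stag3 on chromosome 5 (from 138280240 to 138312393) and Rad21l on chromosome 2 (from 151645404 to 151668533, minus strand). Of the 8 genes that overlap Smc1a, Smc1b, Stag1 or Stag2 in the annotation, 7 were in the table, with at most 4 counts in a library. How reads in such overlaps were assigned is not given in the sources used here.

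Genes that load, release and lock cohesin, listed together with Ctcf and Hdac8, were called in both directions. The list held Nipbl, Mau2, Wapl, Pds5a, Pds5b, Esco1, Esco2, Cdca5, Hdac8 and Ctcf. Of these 10 genes, all tested, 3 were higher and 3 lower in KO at a false discovery rate of 0.05. Of all genes, 31.2% were higher and 24.1% lower. The median log2 fold change was 0.03 over the list and 0.12 over all genes. With library size as the only scaling or with TMM on genes of at least 10 CPM, 5 were higher and 2 lower, and so they were without control replicate 1. Shares at the levels of these genes differ from those of all genes. They were 25.7% higher and 36.8% lower at 10 to 100 CPM (4 of the 10), and 8.37% and 55.2% at 100 CPM or more (6 of the 10). The median log2 fold changes of all genes at these 2 levels were -0.17 and -0.37. Pds5b and Pds5a, which hold WAPL or sororin on the ring, were at 47.3 ± 12.1 and 36.7 ± 13.3 CPM in control and at 92.8 ± 19.2 and 62.8 ± 13.8 CPM in KO libraries (SD, n = 4 each; log2 fold changes 0.97 and 0.77, adjusted p = 0.000898 and 0.0143, edgeR's quasi-likelihood test). Esco1, an acetyltransferase of SMC3, fell from 530.5 ± 66.0 to 276 ± 31.9 CPM (log2 fold change -0.94, adjusted p = 4.88e-05, same test). Mau2, the partner of the loader NIPBL, fell from 95.9 ± 3.07 to 52.9 ± 3.61 CPM (log2 fold change -0.86, adjusted p = 2.81e-05, same test). Esco2, the paralog of Esco1 that was chosen here after its value was seen, went from 537 ± 67.8 to 709 ± 51.6 CPM (log2 fold change 0.40, adjusted p = 0.00969, same test), so that the acetyltransferases changed in opposite directions.

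Genes that protect or cleave meiotic cohesin were lower or did not pass the test. The list held Sgo1, Sgo2a, Sgo2b, Meikin, Bub1, Haspin, Plk1, Espl1 and Pttg1. It also held Ppp2r1a and Ppp2r5a to Ppp2r5e, subunit genes of the phosphatase PP2A. Of these 15 genes, 12 were lower and 0 higher in KO at a false discovery rate of 0.05 by edgeR's quasi-likelihood test. Their median log2 fold change was -0.49. Of all genes 24.1% were lower, and of those at the levels of these genes 36.8% (10 to 100 CPM, 8 of the 15) and 55.2% (100 CPM or more, 7 of the 15). The numbers were the same by DESeq2 and at an unadjusted p under 0.05, and 7 were lower and 0 higher with library size as the only scaling. Ppp2r5d, a B56 subunit of the phosphatase PP2A that shugoshins bring to centromeres, fell from 96.6 ± 9.26 to 39.1 ± 3.42 CPM (log2 fold change -1.31, adjusted p = 3.44e-06, same test). Sgo2b, listed as Sgol2b and related to the shugoshin gene Sgo2a, fell from 55.1 ± 9.23 to 20.2 ± 2.33 CPM (log2 fold change -1.45, adjusted p = 9.42e-06, same test). As near relatives, Sgo2b and Sgo2a can share reads, so the value of either is uncertain. The next genes were chosen for their roles after their values were seen. Sgo2a, the shugoshin that guards centromeric cohesin in oocytes, was at 156 ± 23.9 CPM in control libraries against 153 ± 18.5 CPM in KO, and separase (Espl1) at 181 ± 22.4 against 157 ± 22.8 CPM, with neither passing the test. Securin (Pttg1), the inhibitor of separase, fell from 666 ± 59.1 to 475 ± 14.8 CPM (log2 fold change -0.49, adjusted p = 0.0012, same test), a call lost with library size as the only scaling (-0.20, adjusted p = 0.0513).

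The other SMC complexes give the setting for Smc1b and Smc3. Of the 6 SMC5/6 genes, which act in DNA repair, 5 were lower and 0 higher in KO by edgeR's quasi-likelihood test, with a median log2 fold change of -0.99, beside 24.1% lower of all genes and 36.8% to 55.2% at their levels, and by DESeq2 or at an unadjusted p under 0.05, 6 were lower and 0 higher. Smc5 fell from 51.2 ± 10.3 to 18.3 ± 1.52 CPM (log2 fold change -1.49, adjusted p = 9.91e-06, same test) and Smc6 from 326 ± 58.2 to 156 ± 16.6 CPM (log2 fold change -1.06, adjusted p = 4.32e-05, same test). The count of 5 lower SMC5/6 genes was the same with library size as the only scaling. Of the 8 condensin genes, which compact chromosomes, 3 were lower and 1 higher, beside 24.1% and 31.2% of all genes. At the levels of the condensin genes, 36.8% to 55.2% of genes were lower and 8.37% to 25.7% higher. Smc4 fell from 1121 ± 252 to 614 ± 72.6 CPM (log2 fold change -0.87, adjusted p = 0.000425, same test) and Ncapg from 626 ± 112 to 394 ± 48.4 CPM (log2 fold change -0.67, adjusted p = 0.00149, same test). Smc2 rose from 76.7 ± 16.97 to 106 ± 11.5 CPM (log2 fold change 0.47, adjusted p = 0.0208, same test), a call that ended without control replicate 2 (0.39) or control replicate 4 (0.38). The SMC partners of a complex thus moved together for Smc5 and Smc6 but not for Smc2 and Smc4.

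**Figure D4:**
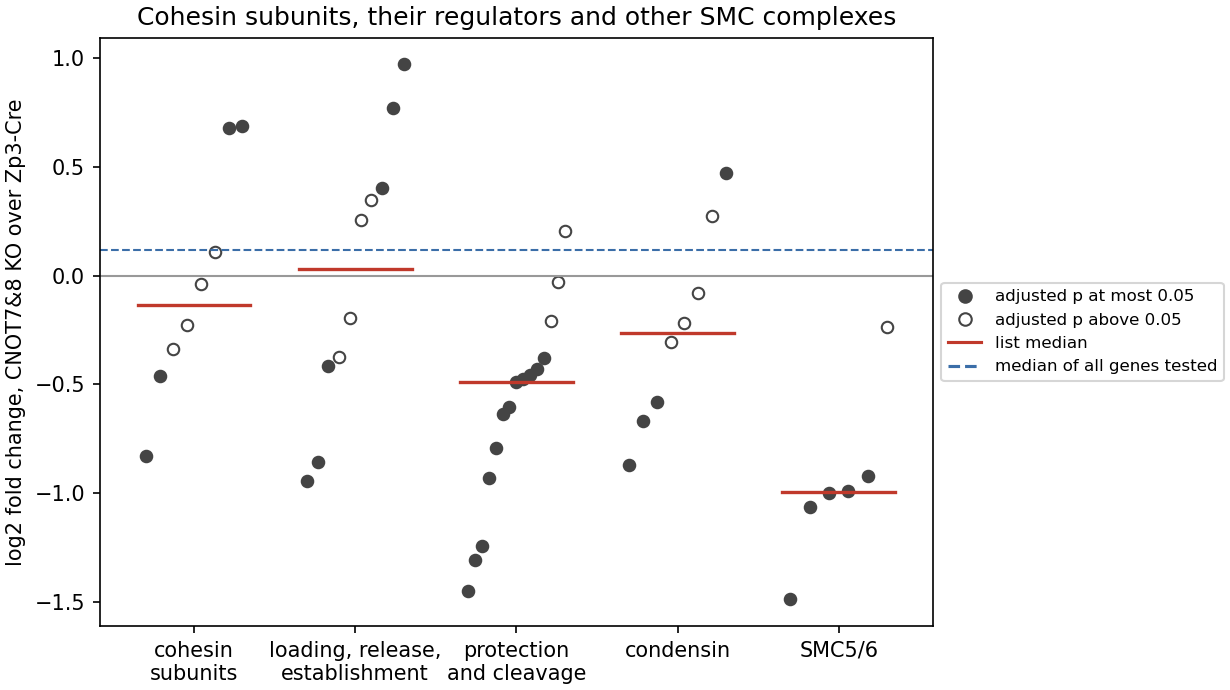
Log2 fold change (CNOT7&8 KO over Zp3-Cre, vertical axis) of each tested gene in 5 lists, filled where the adjusted p was at most 0.05, with the list median in red and the median of all genes tested as a dashed blue line. Cohesin subunits and loading genes spread on both sides of 0, with medians of -0.13 and 0.03, and the filled points of the protection and SMC5/6 lists all lie below 0.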

How the data were processed

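Reads were mapped to GRCm38 with STAR 2.6.1d (nf-core/rnaseq), and the authors deposited unnormalized read counts by gene for 4 CNOT7&8 KO and 4 Zp3-Cre libraries. The labels name a stranded total RNA kit with rRNA depletion. The study's methods name a stranded mRNA kit but describe the mRNA as purified through rRNA depletion. Both sources thus state rRNA depletion, although the kit names differ. The part of the RNA selection in the fold changes was not tested. The counting tool, annotation and strand setting are not given in the sources used here. Groups, replicate numbers and columns were taken from the sample titles. The subunits and gene lists were chosen with earlier results of these data known.

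Of 46078 genes, the 19241 that reached 0.2 CPM in 2 or more libraries were scaled by TMM and compared with the quasi-likelihood test of edgeR 4.0.16 in R 4.3.3 over all 8 libraries, with Benjamini-Hochberg adjustment. Normalized CPM are counts over the TMM-scaled library size. Ratios of counts, with 0.5 added, were compared by exact permutation over 70 assignments. Lengths and 3′UTRs came from GENCODE vM21, which holds 98.0% of the gene identifiers. The tests were tested on simulated data with 4-fold changes, larger than any subunit's change. Named genes were the subunits, and per list the 2 genes with the largest rise and the 2 with the largest fall past the test and at 1 CPM or more. Genes most like Rec8 in pattern were to be named too, which its counts did not allow. Alternatives were edgeR's exact test, DESeq2 1.42.0, other scalings and filters, the replicate number as a block, other lengths, and leaving out libraries. Total counts of 8639444 to 44092144 set the precision.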

Additional observations from a re-analysis of the deposited data

Results flagged for a closer look

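Among 26 groups of 4 values examined, the single genes other than Rec8 and the 5 ratios in each genotype, 4 held 1 library past the critical value of Dixon's gap test. By chance alone, about 1 group in 20 does so, or 1.3 here. Control replicate 1 was the highest control library for Rad21l at 10.3 CPM (4.81 to 5.58 in the others), for Smc1a at 204 CPM (145 to 146) and for Smc3 at 414 CPM (269 to 286). KO replicate 4 was the highest KO library for Rad21 at 111 CPM (72.9 to 77.1 in the others). None of the 10 groups of ratios did so.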

How the results depend on the processing

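Stag2, Stag3 and Smc1b kept their direction and their call in all 17 other fits, which include edgeR's exact test, DESeq2, 3 other scalings, 2 other filters, the replicate block, each library left out, and both libraries that stood apart (control replicate 1 and KO replicate 4) left out, the last added after seeing the data. The number of lower subunits was 1 in place of 2, Smc3 having lost its call, with library size as the only scaling and with TMM on genes of at least 10 CPM. These move the log2 fold changes of all genes by a median of 0.29 and 0.25. Rad21 changed sign to 0.26 with library size only, 0.23 with TMM on genes of at least 10 CPM and 0.036 with the filter raised to 1 CPM in 4 libraries, and Smc1a to 0.059 and 0.031 with the first and second of these. None of these passed the test. With each library left out in turn, Rad21 ranged from -0.17 to 0.16, Rad21l from -0.002 to 0.45, the number of lower subunits from 2 to 3 and that of subunits past the test in all from 4 to 5.
Same-numbered libraries did not deviate together (r of -0.12 to 0.11 over 4 pairs), so the numbers were not taken as pairs. The replicate block left 4 subunits past the test, and with it as 4 pairs, where an exact sign-flip test cannot go below p = 0.125, the log2 differences of the ratios were -0.60 for Smc1b to Smc1a, 1.04 for Stag3 to Stag1 and 1.01 for Stag2 to Stag1, each at that p. Without both libraries that stood apart they were -0.67, 1.067 and 0.96, each at an exact permutation p = 0.1, the smallest that 3 against 3 allow. With each library left out, Stag3 to Stag1 ranged from 0.94 to 1.19 and Stag3 to Stag2 from -0.088 to 0.15. Of 289 values for the 17 other genes reported outside the marker lists, 5 lost the call (Cnot7, Smc2 and Pttg1). The sign changed in 9, all of Sgo2a and Espl1, which did not pass the test in any fit: Sgo2a was 0.26 with library size only, 0.23 with TMM on genes of at least 10 CPM, 0.043 with the raised filter, 0.035 without both libraries that stood apart and -0.084 to 0.083 with each library left out, and Espl1 was 0.072 and 0.034 with the first and second of these. Depth limits Rec8, for which the floor of 3 counts in the shallowest library was 0.326 CPM.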
